A study of Drosophila melanogaster with 8 samples.

Results

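The transcripts described here are 63 genes of 17468 in the count tables whose level in whole Drosophila melanogaster embryos was far higher at gastrulation than at the cellular blastoderm in both genotypes studied. They were chosen from these values: the mean at stage 6-7 was at least 5 CPM (counts scaled to the total over all genes of a library) and at least 4 times the mean at stage 5, in heterozygotes and in homozygotes alike. Of 74 genes past both thresholds (0.424% of 17468), 11 were left out by name, among them en, dally, Toll-6, zfh1 and 4 E(spl) genes. The stage differences of the 63 members are therefore given as a description, with no test, and only genotype differences were tested.

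The RNA came from whole embryos pooled by genotype and stage (N = 100, as the labels give it). The genotypes were zen[7] homozygous and, as the reference, zen[7]/TM3, ftz-lacZ. Each genotype was sampled at stage 5, the cellular blastoderm, and at stage 6-7, the gastrula, with 2 replicate libraries in each of the 4 groups. Both genotypes carry zen[7], the reference in a single copy beside TM3, a balancer of chromosome 3 with a lacZ transgene driven from ftz, and homozygotes were recognised by the absence of a lacZ band. A difference caused by zen and one caused by alleles linked to zen[7] or to the balancer therefore cannot be told apart, for genes on chromosome 3 or elsewhere. In whole embryos, fewer cells of a type and less RNA per cell cannot be told apart either.

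Gastrulation in Drosophila begins once the blastoderm has cellularized, when the ventral mesoderm folds inward, the gut primordia invaginate and the germ band extends. Transcription of the zygotic genome reaches a high level during the long interphase that precedes it, and genes with short transcription units are known to appear before those with long ones. The cells then enter mitosis in a fixed pattern of domains, driven by pulses of string (stg), while segment polarity, Hox and germ layer genes refine the fates that the earlier gap and pair-rule genes laid down.

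Gene counts summed to 29669956 to 37770105 per library, and 9360 genes, all 63 members among them, had enough counts to be tested. The cellularization markers slam, nullo, bnk, halo, term and Sry-alpha summed to 2782 to 3631 CPM in the stage 5 libraries and to 188 to 243 CPM at stage 6-7, with Sry-alpha listed at 0 in all 8. Markers of differentiated neurons, glia, muscle and cuticle were under 1 CPM for 9 of 12 at stage 5, and their sum of 95.5 to 191 CPM was mostly elav. At stage 6-7 the muscle gene Mlc2 passed that level as well, at 1.35 and 0.831 CPM in heterozygotes and 1.31 and 1.69 CPM in homozygotes. Adult ovary and fat body markers summed to 0.858 to 1.55 CPM. The transcript of zen itself was at 107 and 102 CPM in heterozygotes and at 139 and 127 CPM in homozygotes at stage 5, and at 43.6 and 61.8 against 62.4 and 57.5 CPM at stage 6-7, so its level did not mark the homozygotes as lower. The replicates of each of the 4 groups differed beyond counting error, most in homozygotes at stage 5 (chi-square per degree of freedom 48.7) and heterozygotes at stage 6-7 (39.2). Homozygous stage 5 replicate 1 was the lowest of the 4 stage 5 libraries for 47 of the 63 members, against 41.9% of all genes tested. Heterozygous stage 6-7 replicate 1 was the lowest of its 4 for 45 members, against 36.1%. Some of the counts that lean on these 2 libraries are given below with and without them, and the rest with all 8 libraries only. Levels of single genes are listed with the heterozygous replicates 1 and 2 before the homozygous replicates 1 and 2, for stage 5 and then for stage 6-7, and pairs of folds with heterozygotes first.

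The members together held 0.033% and 0.0492% of the gene counts of the homozygous stage 5 libraries and 0.0636% and 0.0564% of the heterozygous ones. At stage 6-7 they held 0.303% and 0.311% in homozygotes and 0.266% and 0.343% in heterozygotes, so every stage 6-7 library lay far above every stage 5 library. Group means of single members ran from 0.161 to 58.9 CPM in heterozygotes at stage 5 (median 4.27) and from 5.28 to 339 CPM at stage 6-7 (median 18.9). In homozygotes they ran from 0.0866 to 45.4 CPM (median 3.40) and from 6.03 to 375 CPM (median 19.1). The median stage fold was 5.15 in heterozygotes, with a range of 4.01 to 37.7, and 6.82 in homozygotes, with a range of 4.23 to 70.6. On the log2 scale these medians were 2.36 and 2.77, beside 0.17 and 0.20 over all genes tested. Scaling by TMM, which compares libraries by their typical gene rather than by their totals, lowered the median stage difference of all genes by 0.15 in heterozygotes and 0.20 in homozygotes, and the members' medians to 2.21 and 2.57. On that scale 45 of the 63 stayed past the thresholds.

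**Figure D1:**
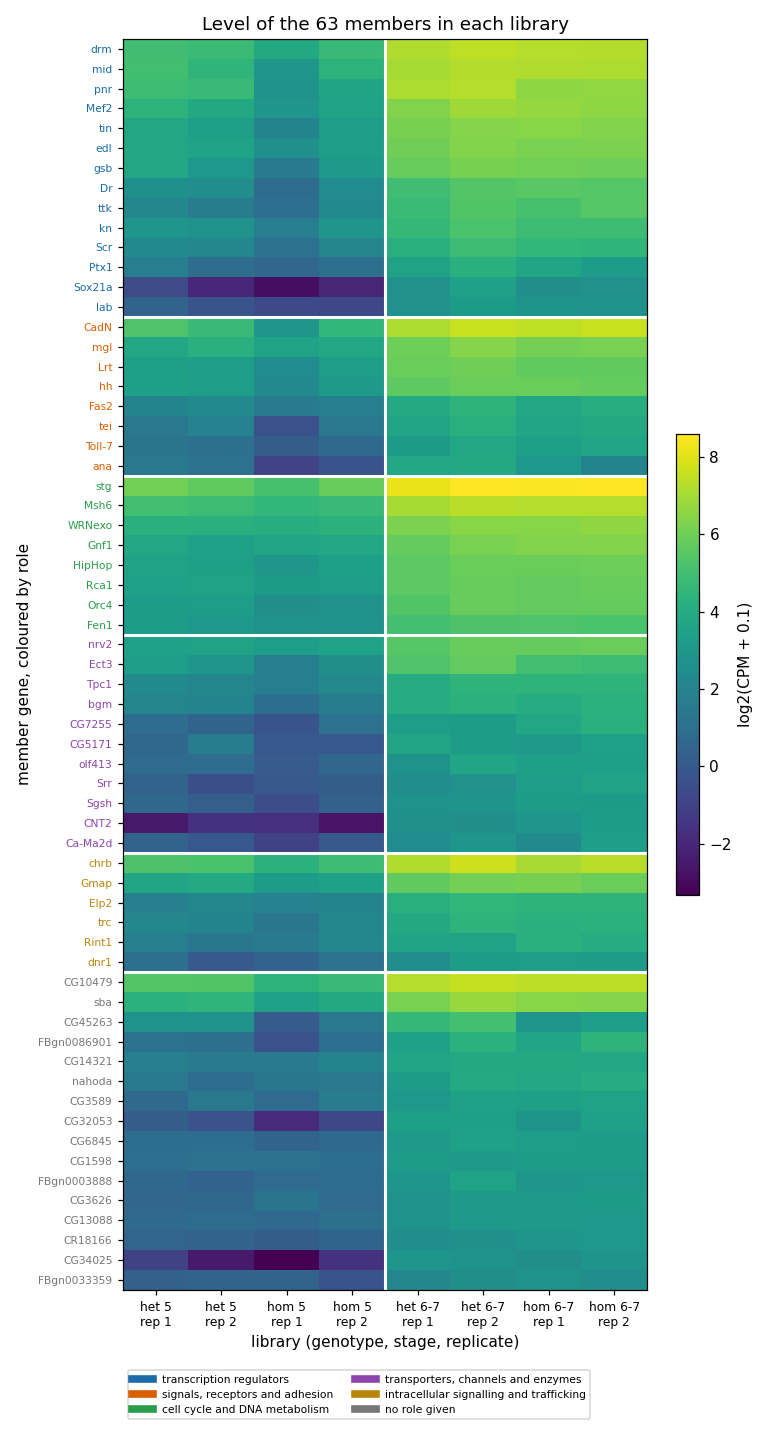
Level of each of the 63 members (rows, grouped and coloured by role) in each of the 8 libraries (columns), as log2(CPM + 0.1). The 4 stage 5 libraries on the left are darker than the 4 stage 6-7 libraries on the right in all rows, and homozygous stage 5 replicate 1 is the darkest stage 5 column for 47 members.

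The lower of the folds was under 5 for 29 of the 63 members, and both folds were at least 6 for 12 members and at least 8 for 5. For 32 members even the lowest stage 6-7 library was at least 4 times the highest stage 5 library in both genotypes. Just inside the threshold lay Tpc1, a mitochondrial thiamine pyrophosphate carrier gene (lower fold 4.01), Fen1 (4.08) and CG10479 (4.12). Just outside it lay Ten-a, the gene of a teneurin surface protein (3.97 in heterozygotes and 7.19 in homozygotes), cuff (3.93) and the Pax6 gene toy (3.92).

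The largest lower fold belonged to CNT2, a concentrative nucleoside transporter gene on chromosome arm 2R (positions 9078721 to 9082374 of BDGP6.54). It was at 0.083 and 0.238 CPM in heterozygotes and at 0.202 and 0.0558 CPM in homozygotes at stage 5, from 12 and 8 reads in all, and at 6.27 and 5.84 against 7.45 and 9.22 CPM at stage 6-7. All 4 stage 5 libraries were near 0 and all 4 stage 6-7 libraries above 5 CPM, and the folds were 37.7 and 64.6. The next by lower fold was CG34025, whose stage 5 levels of 0.415 and 0.0794 CPM in heterozygotes and 0 and 0.223 CPM in homozygotes rested on 18 and 8 reads, with 7.48, 6.55, 5.88 and 6.99 CPM at stage 6-7. Sox21a, a gene of the SoxB family of HMG box factors, was at 0.553 and 0.159 CPM in heterozygotes and 0.0337 and 0.14 CPM in homozygotes, from 26 and 6 reads, and then at 6.48 and 11.3 against 5.77 and 6.46 CPM. Its homozygous stage 5 libraries lay below both heterozygous ones, and its fold was 24.9 in heterozygotes and 70.6 in homozygotes. CG32053 was at 1.05 and 0.715 CPM, and 0.169 and 0.502 CPM, and then at 10.7, 10.8, 7.14 and 11.1 CPM. It lies antisense over 2177 bp within dpr6, which had 3.88 CPM at stage 6-7, and reads of such a pair cannot be told apart, because no source used here gives the strand setting of the counting. The seventh by lower fold, FBgn0086901, was at 2.10 and 2.01 CPM, and 0.708 and 1.95 CPM, and then at 11.1, 19.3, 13.1 and 21.7 CPM. At these depths the low stage 5 counts leave the folds of these genes imprecise, and 5 members in all had stage 5 means under 1 CPM in both genotypes.

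**Figure D2:**
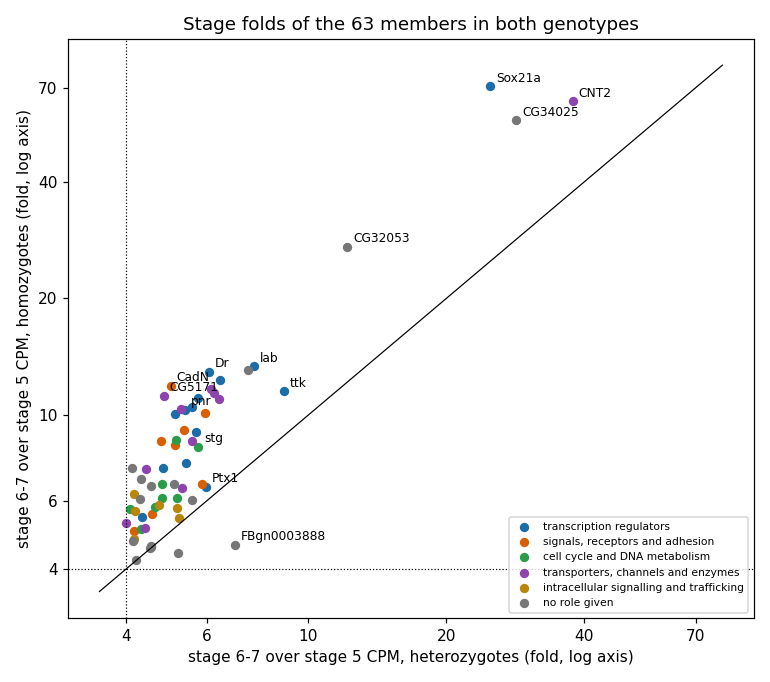
Stage 6-7 over stage 5 fold of each member in heterozygotes (horizontal) and homozygotes (vertical), both on log axes, coloured by role; dotted lines mark the 4-fold threshold and the solid line equal folds. CNT2, CG34025, Sox21a and CG32053 stand apart at the upper right, and 61 of 63 points lie above the line of equal folds.

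The fold was larger in homozygotes for 61 of the 63 members, beside 59.2% of all genes tested, and the folds were within 1.5 times of each other for 34. This count moved with both libraries named above. It was 51 without homozygous stage 5 replicate 1 (54% of all genes), 53 without heterozygous stage 6-7 replicate 1 (59.8%) and 39 without both (53.9%). The folds enter the rule, so these shares are given with no test. The largest ratios between the folds belonged to Sox21a, to CadN (5.01 and 11.9) and to CG5171, a trehalose phosphatase gene (4.83 and 11.2). The smallest belonged to FBgn0003888 (6.90 and 4.62) and CG3626 (5.20 and 4.41), which were higher in heterozygotes, and to CG14321 (4.21 and 4.23). FBgn0003888, FBgn0033359 and FBgn0086901 have no symbol in the annotation used.

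By role, 14 members are transcription regulators, 8 are signals, receptors or adhesion proteins, 8 act in the cell cycle or in DNA metabolism, 11 are transporters, channels or enzymes and 6 act in intracellular signalling or trafficking. The other 16 were given no role. These classes were made after the values were seen and are used to order the description.

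Among the transcription regulators, the GATA factor gene pnr, which patterns the dorsal ectoderm, was the only one called between the genotypes, and its values stand with the genotype comparison below. The zinc finger repressor gene ttk was at 4.68 and 3.12 CPM in heterozygotes and 1.95 and 4.97 CPM in homozygotes at stage 5, and its stage 6-7 levels were 28.2, 40.8, 34.8 and 44.8 CPM. The genotypes overlapped at both stages, and its folds were 8.84 and 11.5. The Hox gene lab of the anterior head was at 1.27 and 0.768 CPM, and 0.539 and 0.502 CPM, and then at 6.45, 9.04, 7.11 and 6.80 CPM. Scr, of the same gene complex, was at 5.01 and 4.53 CPM, and 2.09 and 4.19 CPM, and then at 17.6, 28.3, 23.6 and 22.3 CPM. For both Hox genes the homozygous stage 5 libraries lay under both heterozygous ones, as they did for 25.7% of all genes tested. At stage 6-7 the genotypes overlapped for lab and Scr.

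The mesoderm is represented by tin, the NK homeobox gene of the dorsal mesoderm and heart, and by Mef2, the MADS box gene of muscle. The level of tin was 13.9 and 10.5 CPM in heterozygotes and 3.94 and 9.91 CPM in homozygotes at stage 5, and 70.8, 86.2, 89.0 and 81.8 CPM at stage 6-7. Mef2 was at 20.5 and 15.01 CPM, and 7.31 and 11.5 CPM, and then at 80.5, 117, 103 and 93.6 CPM. Every stage 6-7 library of either gene was above 70 CPM, and the folds were 6.43 and 12.3 for tin and 5.56 and 10.5 for Mef2. Regulators known to act upstream of them were already near their stage 6-7 level at stage 5: twi, the bHLH gene that specifies mesoderm, had folds of 1.19 and 1.28, and sna, the zinc finger gene that acts with it, 0.941 and 1.02. Of 19 mesoderm genes listed, tin and Mef2 were the members, and 5 of 14 that reached 5 CPM were at least 2-fold higher in both genotypes.

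Segment polarity genes were represented by 3 of 19 listed. The paired-type gene gsb was at 14.1 and 7.996 CPM, and 2.9997 and 8.65 CPM, and then at 57.2, 69.8, 66.6 and 62.3 CPM. The T-box gene mid was at 31.3 and 22.3 CPM, and 7.68 and 20.8 CPM, and then at 126, 148, 146 and 140.0 CPM. The signal gene hh was at 10.7 and 10.3 CPM, and 5.09 and 8.71 CPM, and then at 49.2, 57.8, 59.9 and 55.5 CPM. At stage 6-7 the genotypes overlapped for gsb and mid, and for hh as well. Other genes of the pathway were already abundant at stage 5 and had smaller folds, such as the Hedgehog receptor gene ptc (734 and 645 CPM in heterozygotes and homozygotes at stage 5, folds 0.797 and 0.902) and the effector gene ci (folds 1.64 and 1.84). Among the 7 Hox genes listed, 5 of the 6 that reached 5 CPM were at least 2-fold higher in both genotypes. Besides lab and Scr these were Antp (3.25 and 5.03), abd-A (3.25 and 4.29) and Ubx (2.79 and 3.38). The Hox gene Abd-B is not in that list, because it passed both thresholds but was left out by name.

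The remaining regulators cover other parts of the embryo. The zinc finger gene drm of the hindgut and foregut was at 30.9 and 27.7 CPM, and 14.998 and 25.6 CPM, and then at 142, 174, 156 and 149 CPM. The homeobox gene Dr of the dorsal neurectoderm column was at 6.25 and 5.69 CPM, and 1.75 and 5.25 CPM, and then at 30.5, 42.0, 46.4 and 44.1 CPM. The ETS regulator gene edl was at 13.8 and 11.9 CPM, and 6.13 and 10.2 CPM, and then at 64.8, 82.2, 73.2 and 75.1 CPM. For all 3 genes both homozygous stage 5 libraries lay below both heterozygous ones, and homozygous replicate 1 lay lowest. The same order of the genotypes held for 10 of the 14 transcription regulators, beside 25.7% of all genes tested. The Pitx homeobox gene Ptx1 had folds of 5.97 and 6.53 and the COE factor gene kn, active in the head, 4.34 and 5.46. For Ptx1 and kn the genotypes overlapped at stage 5.

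Among surface proteins, CadN, the N-cadherin of mesoderm and axons, had the widest spread between stage 5 libraries among the 7 members whose stage 6-7 means were at least 100 CPM in both genotypes. It was at 40.05 and 26.3 CPM in heterozygotes and 7.72 and 23.4 CPM in homozygotes at stage 5, and at 140 and 192 CPM against 177 and 193 CPM at stage 6-7. The homozygous libraries differed 3-fold from each other at stage 5, and the genotypes overlapped at stage 6-7. The lipoprotein receptor family gene mgl was at 14.1 and 18.8 CPM, and 11.9 and 13.7 CPM, and then at 62.9, 87.1, 68.0 and 73.7 CPM. The leucine-rich repeat gene Lrt, known from tendon cells, was at 10.8 and 10.1 CPM, and 5.39 and 9.94 CPM, and then at 58.2, 64.2, 50.7 and 51.2 CPM. The Toll family receptor gene Toll-7 had folds of 5.36 and 9.15, the immunoglobulin family adhesion gene Fas2 4.15 and 5.01, and tei 4.77 and 8.55. For all 8 members of the class both homozygous stage 5 libraries were below both heterozygous ones, against 35 of the 63 members and 25.7% of all genes tested. In a list of 21 adhesion and guidance genes that leaves out CadN, Fas2 was the only member, and the E-cadherin gene shg was lower at stage 6-7 (folds 0.565 and 0.587).

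The cell cycle class is led by stg, the Cdc25 phosphatase gene that triggers the mitoses of gastrulation, which had the highest stage 6-7 level of all members per kb of exon, 117 CPM. It was at 65.9 and 51.8 CPM in heterozygotes and 35.0 and 55.8 CPM in homozygotes at stage 5, and at 293 and 385 CPM against 365 and 386 CPM at stage 6-7. The genotypes overlapped at both stages, and the folds were 5.75 and 8.27. The gene Rca1, whose product inhibits the anaphase-promoting complex and so protects cyclin A, was at 11.2 and 11.5 CPM, and 8.97 and 9.94 CPM, and then at 48.1, 57.1, 52.4 and 56.9 CPM. The other Cdc25 gene, twe, was lower at stage 6-7 (folds 0.0371 and 0.0552), as was trbl, an inhibitor of stg (0.477 and 0.439), while the cyclin genes CycA, CycB, CycB3 and CycE and the kinase gene Cdk1 had folds between 0.922 and 1.53. These genes are part of a list of 13 regulators of mitosis, added after the values were seen, of which stg, Rca1 and the NDR kinase gene trc were members.

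The other members of the class act in DNA replication and repair. Orc4 of the origin recognition complex was at 9.22 and 9.69 CPM, and 5.90 and 6.50 CPM, and then at 41.1, 56.2, 52.7 and 53.9 CPM. Gnf1, the large subunit gene of the clamp loader, was at 13.9 and 11.1 CPM, and 12.9 and 13.5 CPM, and then at 54.7, 74.3, 80.5 and 81.0 CPM. The flap endonuclease gene Fen1 was at 9.22 and 8.15 CPM, and 6.84 and 6.56 CPM, and then at 32.3, 38.5, 39.5 and 37.2 CPM. For Orc4 and Fen1, not for Gnf1, the homozygous stage 5 libraries lay below the heterozygous ones. This held for 5 of the 8 members of the class, beside 25.7% of all genes tested. The mismatch repair gene Msh6 was at 31.2 and 28.9 CPM, and 23.7 and 27.2 CPM, and then at 125, 164, 155 and 155 CPM, though it shares 163 bp antisense with FucTA (6.68 CPM at stage 6-7). The exonuclease gene WRNexo was at 18.8 and 18.9 CPM, and 17.2 and 19.9 CPM, and then at 74.5, 87.5, 88.7 and 99.1 CPM. The telomere capping gene HipHop had folds of 4.79 and 6.63. The replicates of this class were close at stage 5: the median log2 ratio of homozygous replicate 1 over replicate 2 was -0.17, against -1.06 for the transcription regulators and -0.06 over all genes tested.

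The wider replication machinery was compared with these members in a list of 35 genes added after the values were seen, so its counts are a description. All 34 that reached 5 CPM were tested; 31 of them were higher at stage 6-7 in both genotypes and 19 at least 2-fold higher, beside 9.05% of all genes tested that met the latter. The median log2 stage difference was 1.11 in heterozygotes and 1.35 in homozygotes. Just below the 4-fold threshold in heterozygotes were Cdc45 (3.66 and 4.31), the DNA polymerase epsilon gene PolE1 (3.47 and 5.11) and RPA1 (3.40 and 4.07). The clamp gene PCNA was already abundant at stage 5, at 393 and 421 CPM, and had folds of 1.55 and 1.59. The 3 genes that were lower at stage 6-7 were Sld5, the licensing gene Cdc6 and geminin (folds 0.961 and 0.969), an inhibitor of licensing. In the added list of 6 mismatch repair and exonuclease genes, 5 were at least 2-fold higher in both genotypes, among them the exonuclease gene tos (2.88 and 3.41), and spel1 was not (1.54 and 1.83).

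**Figure D3:**
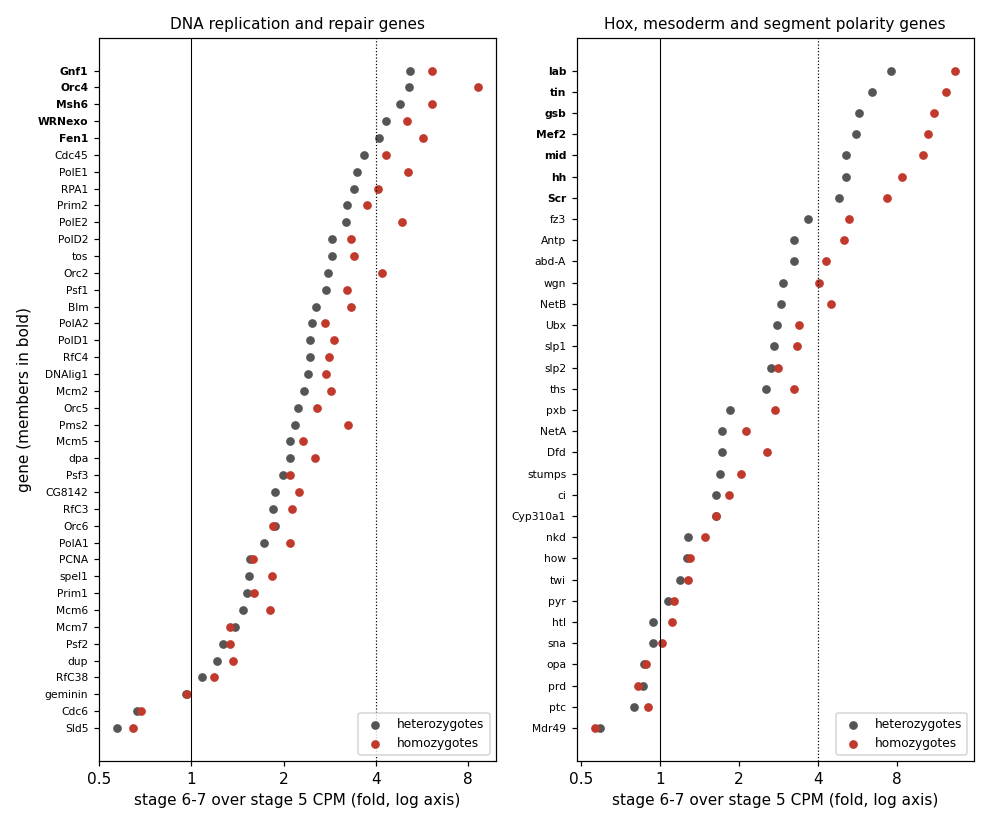
Stage 6-7 over stage 5 fold (log axes) in heterozygotes (grey) and homozygotes (red) for replication and repair genes (left) and for Hox, mesoderm and segment polarity genes (right) with at least 5 CPM at stage 6-7; members are in bold and the dotted line marks 4-fold. Gnf1, Orc4, Msh6, WRNexo and Fen1 head a list of which most genes lie to the right of 1, while the right panel reaches from Mdr49 below 1 to lab.

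Transporters, channels and enzymes include several genes with low levels. Srr, the serine racemase gene, was at 1.27 and 0.635 CPM, and 0.91 and 1.03 CPM, and then at 5.72 and 6.49 CPM in heterozygotes and 9.90 and 11.5 CPM in homozygotes. Both homozygous libraries were higher at stage 6-7, a log2 difference of 0.81 (SE 0.215) that missed the threshold (edgeR adjusted p = 0.0967), and the gene shares 161 bp antisense with FER (51.4 CPM). This difference was called with limma-voom (adjusted p = 0.0384) and with the stage 6-7 libraries alone (edgeR adjusted p = 0.0356). It was also called with no low-count filter (edgeR adjusted p = 0.00425) and with a replicate block in each stage (0.0192). DESeq2 did not call it (adjusted p = 0.0512), nor did edgeR with a single replicate block (0.0733) or with library totals (0.125). The log2 difference of Srr ranged from 0.70 to 0.91 when a library was left out. CG7255 was at 10.2 and 9.51 CPM against 13.9 and 18.7 CPM at stage 6-7, a log2 difference of 0.72 (edgeR adjusted p = 0.38). That difference was called with no low-count filter (edgeR adjusted p = 0.00244). It was not called with the stage 6-7 libraries alone (edgeR adjusted p = 0.0748), limma-voom (adjusted p = 0.146) or DESeq2 (adjusted p = 0.9997). It ranged from 0.50 to 0.91 when a library was left out. The lysosomal galactosidase gene Ect3 lay below the heterozygotes in all homozygous libraries, at 9.91 and 7.47 against 3.47 and 5.80 CPM at stage 5 and at 39.7 and 52.4 against 31.8 and 28.2 CPM at stage 6-7. Its log2 differences of -0.85 and -0.62 missed the threshold as well (edgeR adjusted p = 0.114 and 0.227). DESeq2 called Ect3 at stage 5 (adjusted p = 0.00253) and not at stage 6-7 (0.0547), and limma-voom at neither stage (adjusted p = 0.179 and 0.108). With no low-count filter edgeR called it at both stages (adjusted p = 2.61e-06 and 0.000163). With the libraries of 1 stage alone edgeR called it at stage 6-7 (adjusted p = 0.0476) and not at stage 5 (0.0918). When a library was left out, the log2 difference of Ect3 ranged from -1.29 to -0.57 at stage 5 and from -0.81 to -0.40 at stage 6-7. The calcium channel subunit gene Ca-Ma2d had folds of 6.12 and 11.7, the sodium pump subunit gene nrv2 4.41 and 5.12, and the acyl-CoA synthetase gene bgm 4.43 and 7.24. In the signalling class chrb, a regulator of TOR signalling, had the highest stage 6-7 level per kb of exon (26.7 CPM), and its own level was 38.6 and 35.5 CPM, and 20.1 and 29.1 CPM, and then at 143, 207, 129 and 159 CPM. Among members with no role given, sba was at 19.5 and 22.1 CPM, and 11.1 and 14.5 CPM, and then at 72.1, 107, 89.2 and 85.6 CPM, with the genotypes apart at stage 5 and overlapping at stage 6-7.

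The members were thinly spread over the other listed pathways. The lists hold none of the genes left out by name, however. Genes past both thresholds, such as ac, zfh1, en, Abd-B and the E(spl) genes, are therefore missing from the list counts here and above. The head and appendage list held 2 of 18 (Dr and kn), the gut, endoderm and blood list 1 of 16 (drm), the list of gastrulation movements 1 of 10 (stg) and the EGF receptor list 1 of 10 (ttk). The list named for the Bearded family and the Notch pathway held 1 of 12, the ETS regulator gene edl, which is not of the Bearded family and was placed there. The added telomere list held 1 of 5 (HipHop). There were 0 members among 20 proneural and neuroblast genes, 6 tracheal and FGF genes, 8 JAK/STAT genes and 18 ecdysone genes. The calls between genotypes in these lists fell on genes other than the members, apart from pnr. In homozygotes at stage 5 the head genes so and Dll were lower (log2 -2.14 and -1.29, edgeR adjusted p = 0.00495 and 0.0031), and so were the Hox gene Dfd, the segment polarity list's pxb and the replication gene Orc2 (log2 -0.71, -0.57 and -0.54, edgeR adjusted p = 0.0405, 0.047 and 0.0115). The FGF gene bnl, ush, the adhesion genes rst and fra, ftz-f1 and T48 were lower at stage 5 as well, and at stage 6-7 bnl, ush, rst, fra, tutl and the Notch ligand gene Ser were lower while cas and scrt of the neuroblast list were higher. The lists of mesoderm, EGF receptor, JAK/STAT, mismatch repair, telomere and mitosis genes had no gene called in edgeR at either stage.

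The rule did not use the structure of the genes. Of the members, 60 are in the Ensembl annotation of BDGP6.54, and 59 of these are protein-coding and 1, CR18166, is a pseudogene. The median span from first to last exon was 5991 bp, against 2665 bp over the 9187 annotated genes tested, and 14 members (23.3%) were longer than 20000 bp, against 8.72%. The longest was mgl (141634 bp) and the shortest CG14321 (784 bp). Median exonic length was 2726 against 2053 bp, and 3 members (5%), Toll-7, Sgsh and Rca1, have a single exon, against 12% of all. The classes differed in span, with a median of 44234 bp in signals, receptors and adhesion proteins and 12448 bp in transcription regulators. It was 7473.5 bp in intracellular signalling and trafficking and 4239 bp in transporters, channels and enzymes. Members with no role given had a median of 2177 bp, and the cell cycle and DNA metabolism class 1797 bp. In the same order, the median log2 ratios of homozygous stage 5 replicate 1 over replicate 2 were -0.78, -1.06, -0.60, -0.57, -0.32 and -0.17. Whether span bears on these ratios was not tested. By chromosome, 30 members (50%) lie on chromosome 3, against 44% of genes tested, and the members are spread over arms 2L (9), 2R (16), 3L (12), 3R (18) and X (5). The members ana and CNT2 lie 1166 bp apart on 2R, and CG3589 and Orc4 lie 10197 bp apart.

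The genotype comparison asks whether these transcripts differed in embryos homozygous for zen[7], and the rule bears on it: a gene lost in 1 genotype at stage 6-7 could not become a member, and the stage 5 means of both genotypes enter the ratios. The difference between the stages is the ratio of the folds that chose the members, so its values and calls below describe the members and support nothing. At stage 5, 4 of the 63 members were called, all lower in homozygotes (edgeR's quasi-likelihood test, adjusted p under 0.05), beside 1.62% of all genes tested and 1.34% called lower. At stage 6-7, 2 members were called, both lower, beside 1.77% of all and 1.25% called lower. The stage 5 count was 20 without homozygous stage 5 replicate 2 and 2 without heterozygous stage 5 replicate 2. The stage 6-7 count was 4 and 5 without homozygous stage 5 replicates 1 and 2, with 1 of each called higher, 1 without either homozygous stage 6-7 replicate or heterozygous stage 6-7 replicate 1, and 0 without heterozygous stage 6-7 replicate 2. The called genes were pnr, CG10479, ana and CG45263, the last pair at both stages. Of these, pnr, CG10479 and CG45263 lie on chromosome 3, the chromosome of zen and of the balancer, and ana on 2R.

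The gene pnr lies on arm 3R at 16026079 to 16041796 (BDGP6.54). At stage 5 it was at 28.3 and 26.2 CPM in heterozygotes and at 6.539 and 12.2 CPM in homozygotes, a mean ± SD of 27.2 ± 1.48 against 9.37 ± 4.0002 (n = 2 libraries each). Both homozygous libraries lay far below both heterozygous ones, a log2 difference of -1.49 (SE 0.199, edgeR adjusted p = 0.00341). At stage 6-7 the levels were 139 and 153 CPM against 93.8 and 99.6 CPM, again without overlap, and the log2 difference of -0.60 (SE 0.177) missed the threshold (edgeR adjusted p = 0.21). That difference was called with limma-voom (adjusted p = 0.0381). With edgeR it was called with the stage 6-7 libraries alone (adjusted p = 0.00319) and with no low-count filter (6.65e-06). DESeq2 did not call it (adjusted p = 0.734), nor did edgeR with a single replicate block (0.15) or with library totals (0.268). The difference between the stages, 0.89 on the log2 scale, was not called (edgeR adjusted p = 0.404), but without homozygous stage 5 replicate 2 it was 1.43 and called (edgeR adjusted p = 0.000348), and without replicate 1 it was 0.55 (0.241). The stage 5 call was made without each library in turn, and the stage 6-7 difference passed without homozygous stage 5 replicate 1 (edgeR adjusted p = 0.000592) or replicate 2 (0.000407). The list of dorsal ectoderm and Dpp target genes, to which pnr belongs, had 7 of 22 genes called lower at stage 5 and 9 at stage 6-7. Over all genes tested these shares were 1.34% and 1.25%. None of the list was called higher at either stage, and pnr was the only member in it. The list was written with earlier results of these data known, so its counts are a description and lend pnr no support.

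CG10479 on 3L, at 5967545 to 5976007, was called at stage 5 and not at stage 6-7. It was at 42.7 and 40.7 CPM in heterozygotes and 20.8 and 25.6 CPM in homozygotes at stage 5, a log2 difference of -0.80 (SE 0.113, edgeR adjusted p = 0.00175). At stage 6-7 it was at 156 and 188 CPM against 170 and 169 CPM, so that the homozygous libraries lay between the heterozygous ones (log2 -0.02, SE 0.106, edgeR adjusted p = 0.9999). The change of the difference between stages was 0.78 on the log2 scale and missed the threshold in edgeR (adjusted p = 0.0845). DESeq2 called it (adjusted p = 0.00267) and limma-voom did not (0.162). With edgeR it was called with a single replicate block (adjusted p = 0.0153), a block in each stage (0.00187) and no low-count filter (6.81e-05). The change ranged from 0.65 to 0.95 when a library was left out. The stage 5 call was made without each library in turn. No role was given to this gene.

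The gene ana encodes a secreted glycoprotein known to restrain neuroblast division in larvae, and lies on 2R at 9062295 to 9077554. It was at 2.60 and 2.09 CPM in heterozygotes and 0.438 and 0.754 CPM in homozygotes at stage 5, and at 13.6 and 14.3 against 8.05 and 4.01 CPM at stage 6-7. The genotypes did not overlap at either stage, and the log2 differences were -1.90 (SE 0.387, edgeR adjusted p = 0.0294) and -1.20 (SE 0.264, edgeR adjusted p = 0.0366). Both calls depended on single libraries. The first was lost without homozygous stage 5 replicate 1 (edgeR adjusted p = 0.167), either heterozygous replicate of stage 5 (0.167 and 0.0658) or of stage 6-7 (0.0593 and 0.0586), and with limma-voom (0.123). The second was lost without homozygous stage 6-7 replicate 2 (edgeR adjusted p = 0.277), either heterozygous replicate of stage 6-7 (0.163 and 0.229) or heterozygous stage 5 replicate 1 (0.0517), and also among genes off chromosome 3 alone (0.0998), with the stage 6-7 libraries alone (0.0664) and at 10 CPM or more (0.0566). The stage 6-7 difference was -0.79 without homozygous stage 6-7 replicate 2 and -1.81 without replicate 1. Its neighbour CNT2 was at 6.06 ± 0.303 CPM in heterozygotes and 8.33 ± 1.25 CPM in homozygotes at stage 6-7 (n = 2 each, log2 0.46, edgeR adjusted p = 0.768).

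CG45263 on 3R, at 8364328 to 8477617, had the largest genotype difference of the members at stage 6-7. It was at 6.75 and 6.91 CPM in heterozygotes and 0.977 and 2.60 CPM in homozygotes at stage 5, a log2 difference of -1.86 (SE 0.326, edgeR adjusted p = 0.0215). At stage 6-7 it was at 24.0 and 32.5 against 7.22 and 9.72 CPM, a log2 difference of -1.74 (SE 0.267, edgeR adjusted p = 0.0068). The stage folds of 4.13 and 4.74 were close all the same, and the interaction was 0.12 on the log2 scale (edgeR adjusted p = 0.962), with values from -0.35 without homozygous stage 5 replicate 1 to 1.03 without replicate 2. The stage 5 call was lost without either heterozygous replicate of that stage (edgeR adjusted p = 0.124 and 0.0966). The stage 6-7 call was lost without homozygous stage 6-7 replicate 1 (0.119) and without heterozygous stage 6-7 replicate 2 (0.0568).

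**Figure D4:**
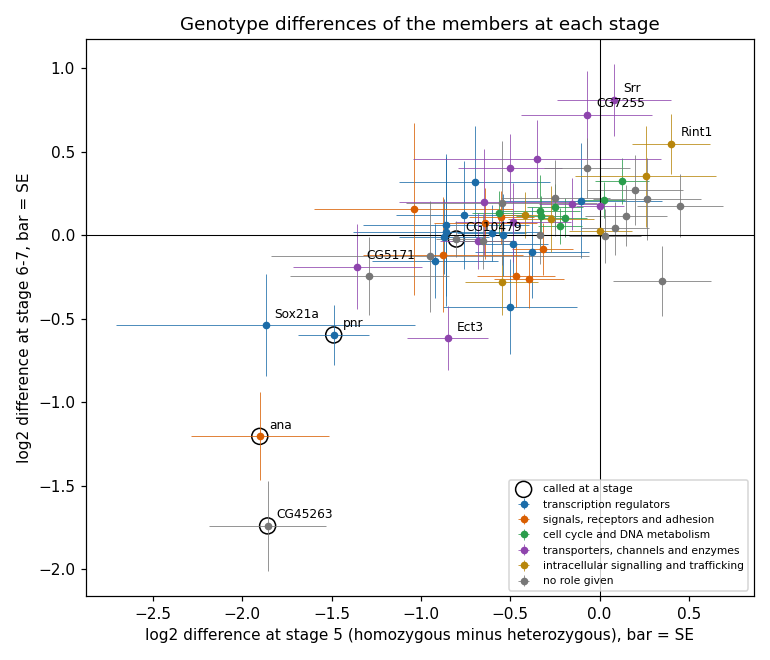
Log2 difference between genotypes (homozygous minus heterozygous) of each member at stage 5 (horizontal) and stage 6-7 (vertical), with standard errors from edgeR and colours by role; circles mark members called at a stage. CG45263, ana and pnr lie at the lower left, CG10479 lies near 0 at stage 6-7, and most other points lie left of 0 at stage 5 and near 0 at stage 6-7.

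Beyond these calls, most members had lower values in homozygotes at stage 5, and at stage 6-7 they were about level. The stage 5 means of both genotypes entered the rule, and a gene lost in 1 genotype at stage 6-7 could not become a member. The counts that follow therefore describe the members, and nothing is read from their distance to the shares over all genes. The log2 difference was below 0 for 49 of 63 at stage 5 with a median of -0.47, against 0.00 over all genes tested. It was below 0 for 23 at stage 6-7 with a median of 0.07, against 0.01. The stage 6-7 median was -0.07 without heterozygous stage 6-7 replicate 1 and 0.28 without replicate 2. An unadjusted p under 0.05 was reached at stage 5 by 20 members, all lower, beside 12.3% of all genes in either direction and 7.96% lower. At stage 6-7 it was reached by 9 members, 4 lower and 5 higher, beside 7.54% of all genes, 4.05% lower and 3.49% higher. Both homozygous stage 5 libraries lay under both heterozygous ones for 35 members, beside 25.7% of all genes, and over both for 2, beside 16.3%. At stage 6-7 the counts were 6 under, beside 16.5%, and 10 over, beside 20.2%.

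The stage 5 shift moved with homozygous stage 5 replicate 1, which lay under replicate 2 for 56 of the 63 members, beside 57.3% of all genes. Without replicate 1 the members' median difference was -0.24, and without replicate 2 it was -0.86. Replicate 2 by itself lay under both heterozygous libraries for 38 members, beside 37.5%. The summed level of the cellularization markers was 3631 CPM in replicate 1 and 2782 CPM in replicate 2 of the homozygotes, against 3471 and 2997 CPM in the heterozygotes, with halo and term highest in homozygous replicate 1 and slam, nullo and bnk in heterozygous replicate 1. The 12 markers of older embryos summed to 95.5 and 159 CPM in homozygous replicates 1 and 2, against 125 and 147 CPM in the heterozygotes. Of the 3 of them at 1 CPM or more at stage 5, elav (89.2 CPM) and nSyb (1.15 CPM) were lowest and Act57B (2.53 CPM) highest in homozygous replicate 1, and Cpr65Ec and Lcp4 were at 0 in all libraries. The part that the timing of the collections had in the shift was not tested. By class, the median stage 5 difference was -0.73 in transcription regulators, -0.60 in signals, receptors and adhesion proteins, -0.49 in transporters, channels and enzymes, -0.24 in the cell cycle and DNA metabolism class, -0.16 in members with no role given and -0.13 in intracellular signalling and trafficking.

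**Figure D5:**
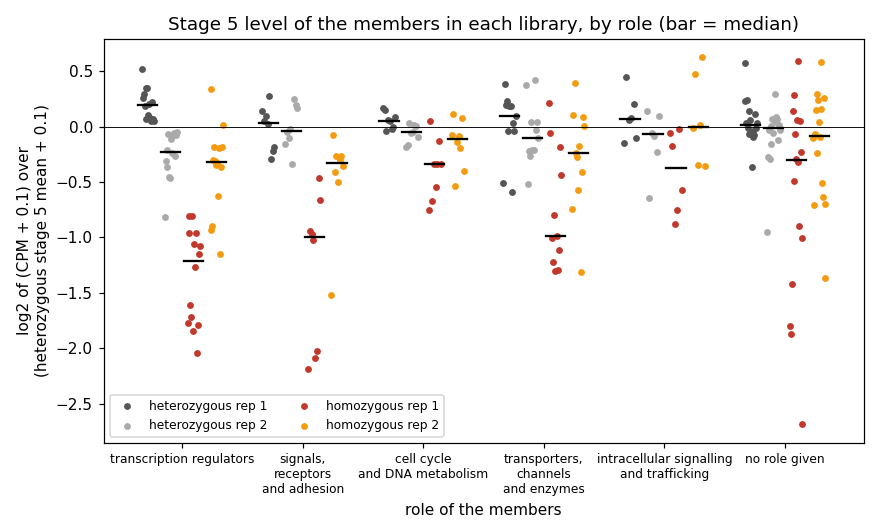
Stage 5 level of each member in each of the 4 stage 5 libraries, as log2 of (CPM + 0.1) over (the heterozygous stage 5 mean + 0.1), by role; each point is a gene and each bar a median. The median of homozygous replicate 1 is the lowest in all 6 classes, furthest below 0 in transcription regulators, in signals, receptors and adhesion proteins and in transporters, channels and enzymes, and closer to 0 in the cell cycle and DNA metabolism class.

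No member was called in edgeR's test of the difference between the stages, beside 0.0748% of all genes. DESeq2 called 1, CG10479, and limma-voom 0, and 12 members had an unadjusted p under 0.05 in edgeR, each with the larger stage difference in homozygotes, beside 6.72% of all genes in either direction and 3.94% in that one. The folds behind this difference chose the members, so nothing is read from these counts. The median of this difference was 0.48 on the log2 scale, against 0.01 over all genes. It was 0.25 without homozygous stage 5 replicate 1 and 0.84 without replicate 2. The count of members called was 12 without homozygous stage 5 replicate 2 and 1 without heterozygous stage 6-7 replicate 2.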

How the data were processed

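Total RNA of pooled embryos was sequenced as 100 bp paired reads with 200 bp inserts, per the labels' protocols. The authors deposited whole-number counts of reads per gene, 1 table per library. The submitters' processing notes name STAR and HTSeq. No source used here gives their versions, the genome build, the annotation or the strand setting. HTSeq's summary lines for reads not assigned to 1 gene, 12.9% to 18.2% of each total, were left out. Most of these reads had no unique alignment (8.01% to 13.4% of the total), and 0.874% to 1.43% lay in no feature. The series' design text names biological replicates without saying how embryos were split, so the p-values cover the spread among pools, which may be technical.

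Groups follow the labels' genotype and stage. CPM is the count over the gene total of its library. Genotype contrasts at each stage and their difference were fitted on the whole table with edgeR 4.0.16 in R 4.3.3 (TMM, factors 0.907 to 1.07; filterByExpr with a minimum count of 10; glmQLFit with robust estimation; glmQLFTest; 1 mean per group over all 8 libraries) and Benjamini-Hochberg adjusted over 9360 genes. The SE is the absolute log2 difference over the square root of F. The fit was tested on simulated data. Gene IDs were looked up in Ensembl's BDGP6.54 annotation for symbols, positions and overlaps, and 280 of 17468 were not in it.

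The members, the 14 gene lists and the tests were chosen with earlier results of these data known, and 4 more lists were added after the values were seen. One gene of an added list is not reported here. Named were the 15 members with the largest lower fold, the 15 with the highest stage 6-7 CPM, every called member, up to 5 members per list, the 3 genes on each side of the fold threshold, the 3 members at each end of the ratio of folds, and other list genes that show a list's range; further genes were named after their values were seen. Alternatives were other scalings, filters, DESeq2 1.42.0, limma-voom (limma 3.58.1), a replicate block, the libraries of 1 stage, genes off chromosome 3 and leaving out each library.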

Additional observations from a re-analysis of the deposited data

How the results depend on the processing

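The number of members called at stage 5, 4 in the fit reported and all lower, was 16 with no low-count filter, 10 with DESeq2, 1 among genes off chromosome 3 alone and 2 to 20 when a library was left out, with 20 reached without homozygous stage 5 replicate 2. At stage 6-7, where 2 were called, both lower, the number called in either direction was 7 with no low-count filter (4 lower and 3 higher), 1 at 10 CPM or more, 4 with limma-voom and 4 with the libraries of stage 6-7 alone (3 lower and 1 higher each), 0 off chromosome 3 and 0 to 5 when a library was left out, with at most 1 higher. The difference between stages, with 0 called, gave 8 with no low-count filter, 1 with DESeq2 and 0 to 12 when a library was left out, with 12 reached without homozygous stage 5 replicate 2. RLE size factors and library totals in place of TMM left the 3 counts at 4, 2 and 0. The causes were not tested. Without a library, the 1 that remains in its group is assumed to vary like the others.

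Replicate numbers did not pair the samples: deviations of same-numbered libraries correlated at -0.062 to 0.043 across genes. With a replicate block the calls were 7 at stage 5, 2 at stage 6-7 and 1 for the difference between stages. A replicate block fitted separately in each stage gave 11, 3 and 1.

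The rule gave 184 members at 3-fold, 5 at 8-fold, 41 at 10 CPM or more and 32 when the lowest stage 6-7 library had to be 4 times the highest stage 5 library. It gave 43 without heterozygous stage 6-7 replicate 2 and 92 without replicate 1. The members with a larger fold in homozygotes numbered 39 when homozygous stage 5 replicate 1 and heterozygous stage 6-7 replicate 1 were both left out, and 51 to 60 without 1 library. Those under both heterozygotes at stage 5 numbered 38 without homozygous replicate 1 and 50 without replicate 2. Both counts without libraries were added after the data were seen. Median log2 stage differences were 2.12 to 2.54 in heterozygotes and 2.58 to 3.11 in homozygotes without 1 library. Of the other values for single members under these alternatives, 339 kept their side of the threshold and their direction, 61 gained a call, 17 lost one and 0 changed direction. The calls lost belonged to ana and CG45263, and those of pnr and CG10479 at stage 5 held under each alternative that tested them. Stage 5 levels under about 1 CPM rest on few reads and limit the folds of CNT2, CG34025, Sox21a and CG32053.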
